A study of Mus musculus with 18 samples.

Results

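The 42 genes described here are the cell cycle and proliferation genes of the mouse colon. They were listed by name and role rather than by a threshold on these values, though the list was drawn up with earlier results of these data known, and all 42 were found among the 47729 genes of the count table. They were read in 3 phases, which were 9 genes of G1 (cyclins D and E, their kinases and *E2f1*), 12 genes of S phase and 21 genes of G2 and mitosis, called mitotic genes below. RNA was sequenced from the colon of 3 groups of 3 mice on a C57BL/6 background. Naive WT mice (mice 1 to 3) carried the control label and are taken as untreated from it, although the treatment text attached to all libraries names azoxymethane (AOM) and dextran sulfate sodium (DSS). WT CAC mice (mice 4 to 6) were WT mice given AOM, a carcinogen, once at 10 mg/kg and then 3 cycles of 2.5% DSS, which injures the colon epithelium, which models cancer that follows colitis (CAC). The *Cldn2*TG CAC group (mice 7 to 9) consisted of Villin-*Cldn2*TG mice, in which the villin promoter drives the tight junction gene *Cldn2* in the intestinal epithelium, given the same AOM and DSS. There was no untreated *Cldn2*TG group among these libraries, so genotype and treatment cannot be told apart where *Cldn2*TG CAC is compared with naive WT. The mice were described as age- and sex-matched. The age, and whether tumor or whole colon was taken for RNA, are not given in the sources used here.

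A cell that is told to divide first raises D-type cyclins, which activate Cdk4 and Cdk6 and so release the E2F factors from the retinoblastoma proteins. E2F factors then switch on cyclin E and the genes that copy DNA. After replication, the mitotic genes, many of which are switched on by Foxm1 and the MuvB complex, carry the cell through chromosome condensation, spindle assembly and division. In the colon the dividing cells lie mostly in the lower crypt, and the surface epithelium has stopped dividing. In whole-tissue RNA, fewer cells of a type and less RNA per cell cannot be told apart, so every level below is a level of the tissue.

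Library depth ranged from 14142711 to 22262546 counts assigned to genes, and 3 counts corresponded to 0.129 to 0.220 CPM (counts scaled to a common library size, adjusted by TMM factors). All 42 genes were well above that level. The lowest count of any of them in any mouse was 57, for *Cdc6*, and all 42 passed the filter on low counts in each comparison. *Cldn2* was at 191 to 258 CPM in naive WT, 122 to 136 CPM in WT CAC and 209 to 249 CPM in *Cldn2*TG CAC mice, so the transgenic mice were above WT CAC and within the naive range. Naive WT mouse 1 had 214 CPM of *Xist* and at most 0.199 CPM of 4 Y chromosome genes, and the other 8 mice had the reverse pattern, so mouse 1 differs in sex from the others and results without it are given below. The colon epithelium markers *Epcam* and *Krt8* were high in every mouse (at least 2229 and 4947 CPM). The 3 mice of a group are labelled as separate samples, and p-values set a group difference against the spread between mice.

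Promoter letters are shown first, as a description of the phases. CCAAT boxes (CCAAT), CHR elements (TTTGAA or TTCGAA) and E2F sites (TTTGGCGC, TTTCGCGC, TTTCCCGC or TTTGCCGC) were searched on both strands of the RefSeq promoter windows of GRCm38.p6, which reach from 250 bases before to 50 bases after the start of a gene. Of the 42 genes, 32 had a window, and a gene with more than 1 window was counted once, as holding a motif if any window did. A CCAAT box was found for 14 of 15 mitotic, 8 of 11 S-phase and 2 of 6 G1 genes, against 41.1% of all 27025 genes of that table. A CHR element was found for 12 of 15 mitotic, 2 of 11 S-phase and 0 of 6 G1 genes, against 21.7% of all. An E2F site was found for 1 of 15 mitotic, 6 of 11 S-phase and 1 of 6 G1 genes, against 2.6% of all. The mitotic genes thus held mostly CCAAT and CHR letters, and the S-phase genes CCAAT and E2F letters. In each phase, the windows of the genes with the largest called changes are printed below, 5′ to 3′ up to the first annotated start, with matched motifs in capitals; *Ccnd2* and *Kif20a*, the other genes of that choice, had no window in the table. *Ccne1* is at chr7:38107535-38107740 on the minus strand and holds none of the motif letters, *Mcm5* is at chr8:75109259-75109508 on the plus strand with 2 CCAAT boxes and overlapping E2F sites, *Mcm6* is at chr1:128359706-128359955 on the minus strand with 2 CCAAT boxes and 3 E2F matches, and *Kif11* is at chr19:37376132-37376381 on the plus strand with 1 CCAAT box and 1 CHR element.
Ccne1: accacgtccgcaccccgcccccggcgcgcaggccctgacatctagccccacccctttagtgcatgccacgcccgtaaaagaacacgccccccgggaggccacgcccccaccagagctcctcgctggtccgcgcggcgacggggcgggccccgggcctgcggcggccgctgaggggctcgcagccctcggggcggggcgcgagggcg
Mcm5: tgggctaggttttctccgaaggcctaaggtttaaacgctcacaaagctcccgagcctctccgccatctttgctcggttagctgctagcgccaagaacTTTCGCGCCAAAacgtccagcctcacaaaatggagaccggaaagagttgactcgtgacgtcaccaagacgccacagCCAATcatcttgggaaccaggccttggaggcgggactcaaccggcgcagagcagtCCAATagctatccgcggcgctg
Mcm6: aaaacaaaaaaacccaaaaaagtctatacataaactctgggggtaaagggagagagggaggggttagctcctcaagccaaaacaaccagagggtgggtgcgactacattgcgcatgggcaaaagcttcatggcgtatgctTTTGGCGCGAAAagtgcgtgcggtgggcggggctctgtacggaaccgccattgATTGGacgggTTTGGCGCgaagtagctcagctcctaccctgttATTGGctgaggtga
Kif11: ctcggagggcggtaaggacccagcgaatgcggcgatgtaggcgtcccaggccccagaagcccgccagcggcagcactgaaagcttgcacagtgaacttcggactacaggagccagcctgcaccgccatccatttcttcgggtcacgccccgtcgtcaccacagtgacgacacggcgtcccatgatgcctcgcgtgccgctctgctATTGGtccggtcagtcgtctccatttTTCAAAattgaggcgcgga

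A motif match is a description of letters. It shows neither binding nor control in these mice.

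Summed over each phase, the levels of the 3 groups fell into different orders. Levels were summed as RPKM, which divides by exonic length and library size, so that long genes did not dominate. The mitotic genes summed to 263, 256 and 342 RPKM in naive WT mice 1, 2 and 3, to 153, 158 and 220 RPKM in WT CAC mice 4, 5 and 6, and to 221, 271 and 179 RPKM in *Cldn2*TG CAC mice 7, 8 and 9. Every WT CAC mouse was below every naive mouse, and the *Cldn2*TG CAC mice spanned the range between the groups and overlapped both. The S-phase genes summed to 182, 147 and 163 RPKM in naive WT, to 126, 135 and 173 RPKM in WT CAC and to 123, 137 and 133 RPKM in *Cldn2*TG CAC mice. Here the *Cldn2*TG CAC mice were all below the naive mice, while WT CAC mouse 6 was within the naive range. The G1 genes summed to 107, 99.1 and 98.7 RPKM in naive WT, to 106, 123 and 140 RPKM in WT CAC and to 106, 106 and 112 RPKM in *Cldn2*TG CAC mice, and all groups overlapped.

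The balance between mitotic and S-phase genes needs no scaling between libraries, since both sums come from the same mouse. It was 1.44, 1.74 and 2.10 in naive WT, 1.22, 1.17 and 1.27 in WT CAC, and 1.79, 1.97 and 1.34 in *Cldn2*TG CAC mice. All 3 WT CAC mice were below the 6 other mice, and the naive and *Cldn2*TG CAC mice overlapped. The same was seen with 1 gene of each phase. *Mki67*, which encodes the proliferation antigen Ki-67, had 1.37, 1.25 and 1.28 counts per count of *Pcna*, the sliding clamp of DNA polymerase, in WT CAC. For the naive group the values were 1.76, 2.34 and 2.69, and in *Cldn2*TG CAC mice they were 1.94, 2.77 and 1.54. These sums and ratios are descriptions with no test. With 3 mice against 3, an exact two-sided permutation test cannot go below p = 0.1.

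**Figure D1:**
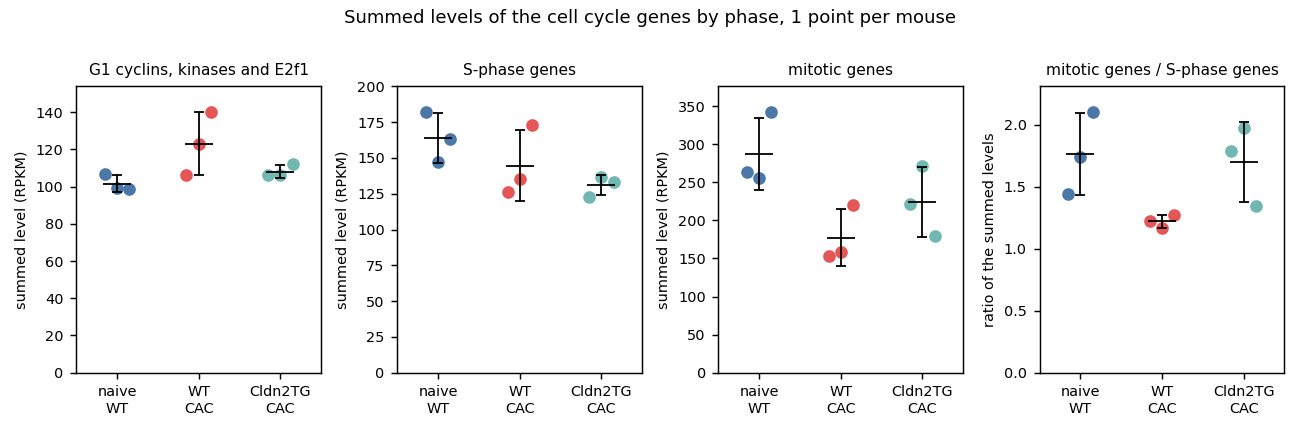
Summed level in RPKM of the genes of each phase, and the ratio of the mitotic to the S-phase sum (y axes), by group (x axis); each point is 1 mouse, the bar is the group mean and the whisker the SD (n = 3). In WT CAC mice the mitotic sum is 153 to 220 RPKM and the ratio 1.17 to 1.27, below all naive mice.

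In WT CAC against naive WT, which asks what the AOM and DSS treatment changed in WT colon, 10 of the 42 genes were lower and 1 was higher in WT CAC mice (edgeR quasi-likelihood test, adjusted p under 0.05 over the 15437 genes tested, termed called). All 10 lower genes were mitotic and the higher gene was *Ccne1*. Of all genes tested, 6.92% were called lower and 8.04% higher. The 42 genes had a median log2 fold change of -0.37, beside 0.02 over all genes tested. By phase the median was 0.24 for G1, -0.18 for S phase and -0.74 for mitotic genes. All 21 mitotic genes were negative, and 17 of 21 did not overlap between the groups, against 19.2% of all genes tested that were lower without overlap. The corresponding background for genes higher without overlap was 18.9%, and *Ccne1* was the 1 member of that kind.

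In *Cldn2*TG CAC against WT CAC, which asks what the transgene changed under the same treatment, no member was called higher and 1 of 42 was called lower, again *Ccne1*. Of the 14888 genes tested, 2.19% were called higher and 7.35% lower, so 1 of 42 lower is below the background. At an unadjusted p under 0.05, 5 members were higher and 3 lower, against 8.84% and 14.7% of the genes tested. DESeq2 called 4 higher and 1 lower, against 3.20% and 9.02% of the genes to which it gave an adjusted p. The mitotic genes were positive in 21 of 21 cases, with a median of 0.30 beside 0.01 over all genes tested, and the S-phase genes were negative in 11 of 12, with a median of -0.17. These signs rested partly on single mice. The median over the 42 members was 0.16 with all mice, 0.0 without mouse 8 and 0.33 without mouse 6. Over the other settings and leave-outs run, not every mitotic gene stayed positive, with *Top2a* and *Ccnb1* as low as -0.18 and -0.05. Without overlap, 3 members were higher (*Mki67*, *Ccnb2* and *Cdc25c*) and 3 lower (*Ccne1*, *Mcm2* and *Mcm5*), against 12.8% and 15.2% of all genes tested.

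In *Cldn2*TG CAC against naive WT, 7 of 42 genes were called lower (3 of S phase and 4 mitotic) and 1, *Ccnd2*, was called higher, against 6.07% and 3.92% of the 15013 genes tested. The median was -0.32 over the members, beside 0.00 over all genes tested, and it was 0.04 for G1, -0.25 for S phase and -0.38 for mitotic genes. All 12 S-phase and all 21 mitotic genes were negative. Lower without overlap were 16 of 42 members, against 16.4% of all genes tested, and higher without overlap was 1, against 15%. The comparisons share mice (naive WT or WT CAC), so they are not independent of each other.

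**Figure D2:**
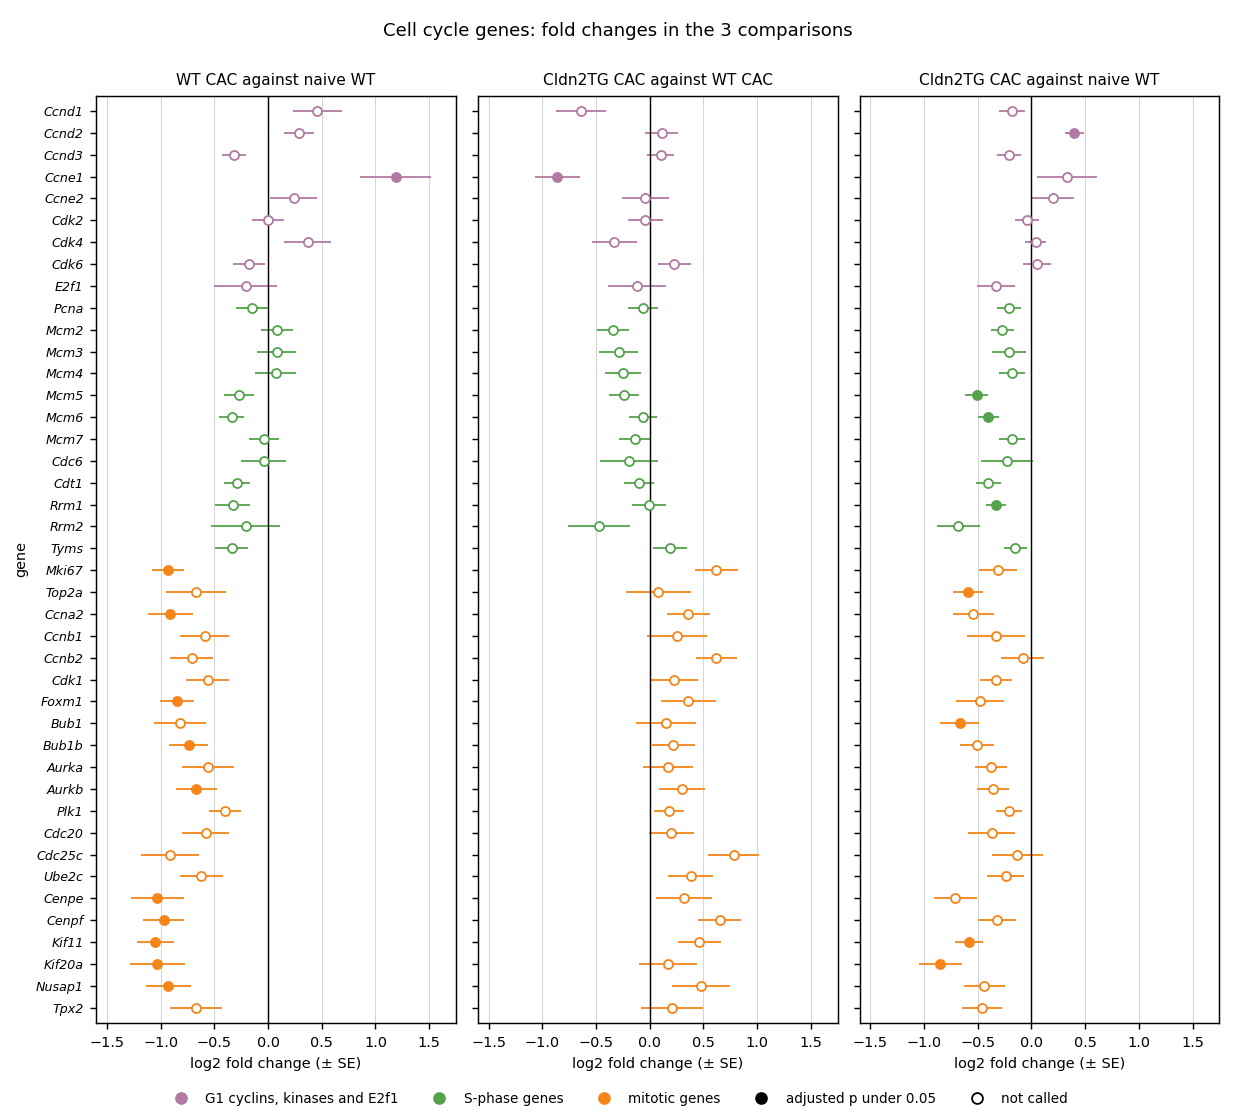
Log2 fold change with its SE (x axis) of each of the 42 genes (y axis, colored by phase) in the 3 comparisons, 3 mice a group; filled points have an adjusted p under 0.05. The mitotic genes are all left of 0 in WT CAC against naive WT (-1.05 to -0.40), all right of 0 in Cldn2TG CAC against WT CAC (0.08 to 0.78), and all left of 0 in Cldn2TG CAC against naive WT (-0.85 to -0.08).

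Among the G1 genes, *Ccne1*, which encodes cyclin E1, the partner of Cdk2 at the entry into S phase, moved in the direction opposite to the mitotic genes. *Ccne1* was at 8.01, 3.51 and 4.43 CPM in naive WT mice 1, 2 and 3, at 10.4, 10.6 and 15.3 CPM in WT CAC mice and at 6.42, 6.49 and 7.03 CPM in *Cldn2*TG CAC mice. All WT CAC mice were above all others, and naive mouse 1 was above the *Cldn2*TG CAC mice. It was higher in WT CAC than in naive WT (log2 fold change 1.19, SE 0.33, adjusted p = 0.0478) and lower in *Cldn2*TG CAC than in WT CAC (-0.86, SE 0.21, adjusted p = 0.0389; both edgeR). Against naive WT, *Cldn2*TG CAC mice did not pass the test (0.33, SE 0.28, adjusted p = 0.504). The first call was lost without mouse 2, 3, 5 or 6 and the second without mouse 5, 6, 7, 8 or 9, with adjusted p values up to 0.157 and 0.145 over all alternatives. Its partner gene *Ccne2*, encoding cyclin E2, was at 4.96 to 6.77 CPM in naive WT, 5.71 to 7.67 CPM in WT CAC and 5.49 to 7.25 CPM in *Cldn2*TG CAC mice, and the groups overlapped.

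The D-type cyclins, which carry growth signals to the cell cycle, did not move together. *Ccnd2* was at 260, 259 and 229 CPM in naive WT, at 294, 358 and 259 CPM in WT CAC and at 334, 315 and 334 CPM in *Cldn2*TG CAC mice. The *Cldn2*TG CAC mice lay above all naive mice, and WT CAC mouse 6 was at the naive level. *Ccnd2* was higher in *Cldn2*TG CAC than in naive WT (0.40, SE 0.09, adjusted p = 0.0215 with edgeR), but not without mouse 3, 8 or 9, and not when libraries were scaled by their size alone (0.29). That scaling lowered the median of all genes tested in this comparison to -0.11. *Ccnd1*, a target of Wnt signaling, was at 51.9, 62.1 and 65.5 CPM in naive WT, at 53.2, 97.5 and 94.1 CPM in WT CAC and at 51.6, 46.5 and 59.4 CPM in *Cldn2*TG CAC mice. WT CAC mice 5 and 6 were thus above every other mouse and mouse 4 was not, and neither comparison passed the test (0.46, SE 0.23, adjusted p = 0.215 against naive WT; -0.64, SE 0.23, adjusted p = 0.129 for *Cldn2*TG CAC against WT CAC, both edgeR). Without mouse 4 both were called (0.69, adjusted p = 0.0067, and -0.87, adjusted p = 0.00241). *Ccnd3* was at 61.5, 60.2 and 53.7 CPM in naive WT, at 48.8, 42.2 and 49.2 CPM in WT CAC and at 46.4, 47.7 and 56.5 CPM in *Cldn2*TG CAC mice. Its WT CAC mice were below all naive mice, and it did not pass the test (-0.32, SE 0.11, adjusted p = 0.0928).

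The kinases *Cdk2*, *Cdk4* and *Cdk6* and the transcription factor gene *E2f1* were not called in any comparison, and their log2 fold changes ranged from -0.33 to 0.37. *Cdk4*, the kinase of the D-type cyclins, was at 198 CPM in WT CAC mouse 6 and at 104 to 127 CPM in the other 8 mice. Per length, *Cdk4* was the second highest of the 42 genes in naive WT (mean 34.7 RPKM) and *Ccnd2* was the highest D-type cyclin (26.5 RPKM, beside 12.7 for *Ccnd1* and 6.66 for *Ccnd3*). *Ccne1* and *Ccne2* were near the bottom of the order, at 2.0 and 1.64 RPKM.

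S-phase genes were not called in WT CAC against naive WT (0 of 12) or in *Cldn2*TG CAC against WT CAC (0 of 12). At an unadjusted p under 0.05, 2 and 1 of them were lower, against 15.6% and 14.7% of all genes tested, and DESeq2 called none in either comparison. *Pcna* was at 91.2, 71.0 and 76.8 CPM in naive WT, at 63.3, 67.4 and 83.6 CPM in WT CAC and at 69.2, 66.5 and 70.6 CPM in *Cldn2*TG CAC mice. *Mcm2*, a subunit of the MCM helicase that opens DNA, was at 50.3, 42 and 45 CPM in naive WT, at 41.4, 45.4 and 57.3 CPM in WT CAC and at 34.7, 38.5 and 40.4 CPM in *Cldn2*TG CAC mice. For both genes the *Cldn2*TG CAC mice were below all naive mice, yet neither passed the test there (-0.21, adjusted p = 0.265 and -0.27, adjusted p = 0.155).

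The S-phase genes called lower in *Cldn2*TG CAC than in naive WT were *Mcm5* and *Mcm6*, encoding further subunits of that helicase, and *Rrm1*, encoding the large subunit of ribonucleotide reductase, which makes deoxynucleotides. *Mcm5* was at 68.7, 59.4 and 74.3 CPM in naive WT, at 50.4, 52.1 and 65.1 CPM in WT CAC and at 44.1, 48.7 and 49.1 CPM in *Cldn2*TG CAC mice. The *Cldn2*TG CAC mice were below all 6 WT mice, and the change from naive WT was -0.51 (SE 0.11, adjusted p = 0.0183, edgeR). *Mcm6* was at 87.9, 77.9 and 84.5 CPM in naive WT, at 61.3, 61.8 and 73.3 CPM in WT CAC and at 59.0, 67.1 and 62.1 CPM in *Cldn2*TG CAC mice. Both treated groups were below all naive mice and overlapped each other, with a change of -0.40 for *Cldn2*TG CAC (SE 0.10, adjusted p = 0.0269) and of -0.34 for WT CAC (SE 0.12, adjusted p = 0.0823). *Rrm1* was at 83.9, 76.5 and 81.4 CPM in naive WT, at 51.7, 60.5 and 79.7 CPM in WT CAC and at 62.6, 66.8 and 61.5 CPM in *Cldn2*TG CAC mice. Its change was -0.33 in both treated groups, called in *Cldn2*TG CAC (SE 0.09, adjusted p = 0.0448) and not in WT CAC (SE 0.16, adjusted p = 0.206), where mouse 6 was at the naive level.

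*Rrm2*, encoding the small subunit of the same enzyme, was at 38.1, 23.0 and 26.1 CPM in naive WT, at 16.5, 21.4 and 37.2 CPM in WT CAC and at 17.6, 21.5 and 14.9 CPM in *Cldn2*TG CAC mice. It varied most in WT CAC, and the *Cldn2*TG CAC mice were below all naive mice without passing the test (-0.68, SE 0.20, adjusted p = 0.0673). The other S-phase genes, *Mcm3*, *Mcm4*, *Mcm7*, the replication licensing genes *Cdc6* and *Cdt1*, and the thymidylate synthase gene *Tyms*, were between 3.94 and 63.4 CPM in all mice and were not called. Of the 3 called S-phase genes, *Rrm1* was lost when any 1 of the 6 mice was left out, *Mcm6* in 5 of 6 cases and *Mcm5* without mouse 1, 3 or 8. In the fit of all 9 mice, 0 S-phase genes were called, beside 5 of 12 with scaling by library size.

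Of the 21 mitotic genes, 10 were called lower in WT CAC than in naive WT, and the other 11 were negative without passing the test. *Mki67* was at 161, 166 and 206 CPM in naive WT, at 86.7, 84.3 and 107 CPM in WT CAC and at 134, 184 and 109 CPM in *Cldn2*TG CAC mice. WT CAC mice lay below all others, and *Cldn2*TG CAC mouse 8 was within the naive range. *Mki67* was lower in WT CAC than in naive WT (-0.93, SE 0.15, adjusted p = 0.0116, edgeR), and this call was lost only without mouse 2 (adjusted p = 0.053), of the leave-outs run. Between *Cldn2*TG CAC and WT CAC the change was 0.62 (SE 0.20, adjusted p = 0.0899), higher in *Cldn2*TG CAC and past the threshold with DESeq2 (adjusted p = 0.0363) and without the filter on low counts (adjusted p = 0.037).

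Genes of spindle motors and microtubules are given next. *Kif11*, encoding the kinesin Eg5 that pushes the spindle poles apart, was at 47.3, 49.1 and 55.7 CPM in naive WT, at 18.9, 25.3 and 29.2 CPM in WT CAC and at 35.8, 38.2 and 27.1 CPM in *Cldn2*TG CAC mice. Both treated groups were below all naive mice, and *Cldn2*TG CAC mouse 9 was within the WT CAC range. *Kif11* was called lower in both (-1.05, SE 0.17, adjusted p = 0.0130 and -0.58, SE 0.13, adjusted p = 0.0220). *Kif20a*, encoding a kinesin of the dividing midzone, was at 19.2, 23.9 and 28.9 CPM in naive WT, at 7.69, 13.3 and 14.1 CPM in WT CAC and at 13.4, 16.2 and 9.95 CPM in *Cldn2*TG CAC mice. Both treated groups were again below all naive mice and overlapped each other (-1.03, SE 0.26, adjusted p = 0.0364 and -0.85, SE 0.20, adjusted p = 0.0259). *Nusap1*, whose product bundles spindle microtubules, was at 43.7, 42.6 and 48.5 CPM in naive WT, at 19.4, 19.2 and 31.9 CPM in WT CAC and at 34.5, 41.3 and 22.5 CPM in *Cldn2*TG CAC mice. It was called in WT CAC (-0.93, SE 0.21, adjusted p = 0.0262), and its *Cldn2*TG CAC mice were all below the naive range, with mouse 9 within that of WT CAC. The WT CAC call of *Kif11* was lost without mouse 2 or 3 and that of *Nusap1* without mouse 1, 2, 3 or 5. For *Kif20a* it was lost without mouse 1, 2, 3, 5 or 6. The *Cldn2*TG CAC call of *Kif11* was lost without mouse 3 or 9, and that of *Kif20a* without mouse 2, 3, 7 or 9.

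Kinetochore and checkpoint proteins attach chromosomes to the spindle and delay division until all are attached. *Cenpe*, a kinetochore motor, was at 27.0, 30.2 and 40.3 CPM in naive WT, at 10.9, 16.4 and 20.2 CPM in WT CAC and at 18.8, 25.0 and 15.2 CPM in *Cldn2*TG CAC mice (-1.03, SE 0.25, adjusted p = 0.0325 for WT CAC against naive WT). *Cenpf*, a large kinetochore protein, was at 28.0, 35.2 and 41.3 CPM in naive WT, at 14.8, 16.8 and 21.5 CPM in WT CAC and at 29.0, 33.1 and 21.4 CPM in *Cldn2*TG CAC mice (-0.97, SE 0.19, adjusted p = 0.0204). In WT CAC both genes were below all naive mice, whereas *Cldn2*TG CAC mice 7 and 8 were within the naive range for *Cenpf*. *Bub1b*, encoding the checkpoint protein BubR1, was at 33.1, 37.3 and 44.0 CPM in naive WT, at 18.4, 21.9 and 28.2 CPM in WT CAC and at 25.4, 32.5 and 21.9 CPM in *Cldn2*TG CAC mice (-0.74, SE 0.18, adjusted p = 0.0363). The calls of *Cenpe* and *Bub1b* were lost without mouse 1, 2, 3 or 5, and that of *Cenpf* without mouse 2, 3 or 5. *Bub1*, encoding the checkpoint kinase, was at 16.2, 15.6 and 18.7 CPM in naive WT, at 6.70, 8.85 and 13 CPM in WT CAC and at 11.2, 12.5 and 7.90 CPM in *Cldn2*TG CAC mice. For both genes the treated groups were below all naive mice, and *Bub1* was called in *Cldn2*TG CAC (-0.67, SE 0.18, adjusted p = 0.0377) but not in WT CAC, where the change was larger and more variable (-0.82, SE 0.24, adjusted p = 0.0586). The *Bub1* call was lost without mouse 1, 2, 3, 7 or 9.

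**Figure D3:**
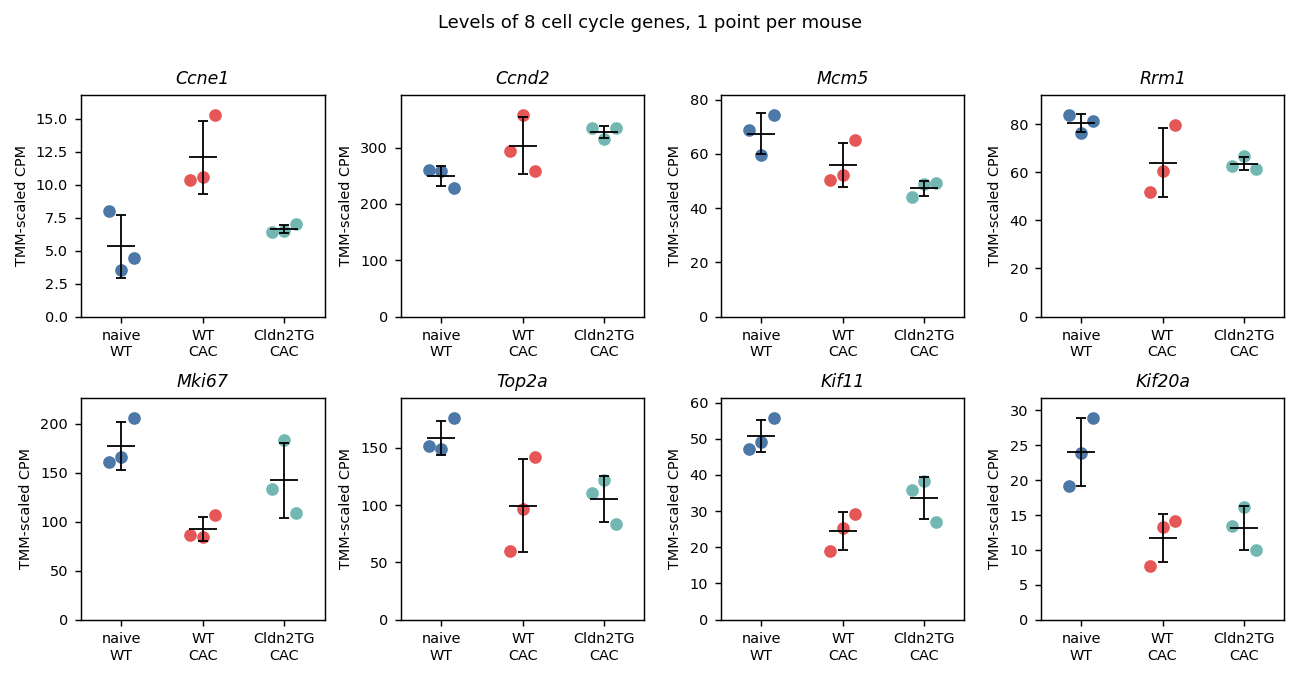
TMM-scaled CPM (y axes, from 0) of 8 of the cell cycle genes by group (x axis); each point is 1 mouse, the bar is the group mean and the whisker the SD (n = 3). WT CAC mice are highest for Ccne1 (10.4 to 15.3 CPM) and below all naive mice for Mki67, Top2a, Kif11 and Kif20a, and Cldn2TG CAC mice are below all naive mice for Mcm5, Rrm1, Top2a, Kif11 and Kif20a.

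Of the regulators of mitosis given here, *Foxm1*, *Ccna2* and *Aurkb* were called lower in WT CAC and *Cdk1* was not. *Foxm1*, encoding the transcription factor that drives many mitotic genes, was at 25.3, 24.5 and 29.4 CPM in naive WT, at 12.2, 15.3 and 16.4 CPM in WT CAC and at 19.1, 24.9 and 12.1 CPM in *Cldn2*TG CAC mice (-0.85, SE 0.16, adjusted p = 0.0173 for WT CAC against naive WT). *Ccna2*, encoding cyclin A2, was at 76.3, 72.1 and 107 CPM in naive WT, at 37.4, 41.4 and 56.8 CPM in WT CAC and at 58.3, 69.9 and 46.0 CPM in *Cldn2*TG CAC mice (-0.91, SE 0.21, adjusted p = 0.0287). WT CAC mice were below all naive mice for both genes, and *Cldn2*TG CAC mouse 9 was within or below the WT CAC range. *Aurkb*, the kinase of the chromosomal passenger complex, was at 35.9, 31.1 and 39.2 CPM in naive WT, at 19.6, 18.6 and 28.5 CPM in WT CAC and at 29.3, 31.3 and 21.7 CPM in *Cldn2*TG CAC mice, and its call was the nearest to the threshold (-0.67, SE 0.19, adjusted p = 0.0484). This call was lost without mouse 1, 2, 3, 4 or 5. The *Foxm1* call was lost without mouse 1, 2 or 3, and the *Ccna2* call without mouse 1, 2, 3 or 5. *Cdk1*, the kinase that starts mitosis, was at 61.5, 50.5 and 64.6 CPM in naive WT, at 34.6, 32.1 and 52.7 CPM in WT CAC and at 46.9, 55.9 and 37.3 CPM in *Cldn2*TG CAC mice. All 3 groups overlapped for *Cdk1*, and it was not called (-0.56, SE 0.20, adjusted p = 0.0977 for WT CAC against naive WT).

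*Top2a*, encoding the topoisomerase that untangles chromosomes, was called lower in *Cldn2*TG CAC and not in WT CAC. It was at 152, 149 and 176 CPM in naive WT, at 60.4, 96.6 and 142 CPM in WT CAC and at 111, 122 and 83.5 CPM in *Cldn2*TG CAC mice. Both treated groups were below all naive mice. The WT CAC mice had the wider spread (-0.67, SE 0.28, adjusted p = 0.146), and the change in *Cldn2*TG CAC was -0.59 (SE 0.14, adjusted p = 0.0236). Their difference was 0.08 in *Cldn2*TG CAC against WT CAC (SE 0.30, adjusted p = 0.926), so a difference between the treated groups was not detected at this spread. The *Top2a* call in *Cldn2*TG CAC against naive WT was lost without mouse 1, 3 or 9.

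The other 8 mitotic genes were not called in any comparison. They were the cyclins *Ccnb1* and *Ccnb2*, the kinases *Aurka* and *Plk1*, *Cdc20* and *Ube2c* of the anaphase-promoting complex pathway, the phosphatase *Cdc25c*, which activates Cdk1, and the spindle factor *Tpx2*. Their log2 fold changes lay between -0.91 and -0.40 in WT CAC against naive WT. *Ccnb2* and *Cdc25c* had the WT CAC mice below all other mice. *Ccnb2* was at 31.2, 31.3 and 41.6 CPM in WT CAC, 47.4 to 73.5 CPM in naive WT and 43.1 to 66.0 CPM in *Cldn2*TG CAC mice. For *Cdc25c* the values were 4.47, 3.81 and 5.37 CPM in WT CAC, 6.86 to 11.7 CPM in naive WT and 6.56 to 9.21 CPM in *Cldn2*TG CAC mice. In *Cldn2*TG CAC against WT CAC these were 0.62 (SE 0.19, adjusted p = 0.0744) and 0.78 (SE 0.24, adjusted p = 0.0786), and DESeq2 called both, with *Mki67* and *Cenpf*.

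Single mice carried much of these counts. For WT CAC against naive WT, the number of members called lower was 0 without mouse 2, 1 without mouse 3, 3 without mouse 1, 3 without mouse 5, 9 without mouse 4 and 15 without mouse 6, beside 10 with all mice. The genes called over the whole table fell at the same time, from 2310 with all mice to 135 without mouse 2 and 404 without mouse 3, and 15 members were called without mouse 6 while 1062 genes were called in all. The median change of the mitotic genes was -0.97 to -0.62 over all alternatives run. For *Cldn2*TG CAC against naive WT, 0 members were called lower without mouse 3, 1 without mouse 9, 2 without mouse 1, 3 without mouse 7, 5 without mouse 2 and 6 without mouse 8, and in the fit of all 9 mice 0 were called. For *Cldn2*TG CAC against WT CAC, *Ccne1* was called with all 6 mice and without mouse 4, when *Ccnd1* was called too, and lost without each of the others.

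**Figure D4:**
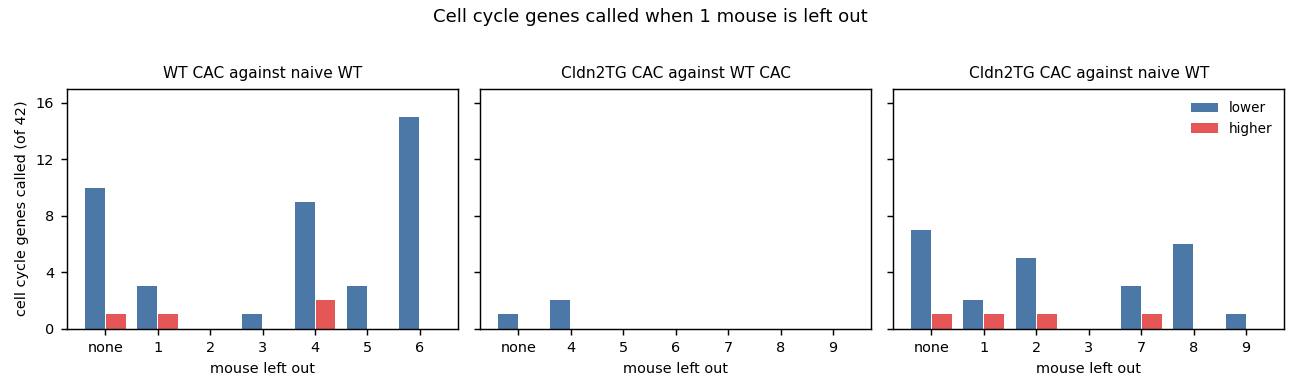
Number of the 42 cell cycle genes called lower or higher (y axis) in each comparison with all 6 mice (none) and when the mouse on the x axis was left out. In WT CAC against naive WT the count called lower is 10 with all mice, 0 without mouse 2 and 15 without mouse 6.

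Other genes of the cell cycle, in lists drawn up by role, were read next to the 42. Of 40 other mitotic genes, 20 were called lower and 0 higher in WT CAC against naive WT, with a median of -0.74, equal to that of the 21 members, against 6.92% of all genes tested called lower. As for the members, this count rested on single mice, and it was 0 without mouse 2, 0 without mouse 3, 4 without mouse 5, 5 without mouse 1, 19 without mouse 4 and 22 without mouse 6. The largest changes among those called were in *Hmmr* (-1.24, SE 0.26, adjusted p = 0.0235), *Ckap2l* (-1.13, SE 0.21, adjusted p = 0.0163) and *Sgo1* (-1.07, SE 0.19, adjusted p = 0.0150), whose products act on the spindle and, for *Sgo1*, protect the cohesion of sister chromatids. *Hmmr* was at 22.0, 27.0 and 40.0 CPM in naive WT, at 9.61, 12.7 and 15.3 CPM in WT CAC and at 18.6, 24.8 and 13.2 CPM in *Cldn2*TG CAC mice. Between the treated groups, 37 of 40 were positive in *Cldn2*TG CAC (median 0.30). None was called in the main edgeR fit, and 1 was called higher without mouse 4. At an unadjusted p under 0.05, 7 were higher and 0 lower, against 8.84% and 14.7% of all genes tested. DESeq2 called 1 of 40 higher, which is below its 3.20% of all genes. Against naive WT, *Cldn2*TG CAC had 4 of 40 called lower (0 without mouse 3, 1 without mouse 7 or 9, 2 without mouse 1, 7 without mouse 8, and 6.07% of all genes tested). DESeq2 called 10 of 40 lower there, against 6.14% of all its genes, and 21 were lower at an unadjusted p under 0.05, against 13.8%. The largest changes among the edgeR calls were in *Sgo1* (-0.74, adjusted p = 0.0407), *Ttk* (-0.71, adjusted p = 0.0286), a checkpoint kinase, and *Ncaph* (-0.67, adjusted p = 0.0116), a condensin subunit.

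Of 30 other DNA replication genes, 1 was called lower in WT CAC against naive WT, which was *Pole* (-0.61, SE 0.15, adjusted p = 0.0326), the catalytic subunit of DNA polymerase epsilon, and the median was -0.26. Of all genes tested 6.92% were called lower, and the *Pole* call was lost without mouse 1, 2, 3, 5 or 6. How the list stood beside all genes turned with the criterion, since DESeq2 called 4 of 30 lower, against 8.73% of all its genes, and 7 of 30 were lower at an unadjusted p under 0.05, against 15.6%. For *Cldn2*TG CAC against naive WT, 5 of 30 were called lower, with the largest changes in *Pola1* (-0.70, SE 0.14, adjusted p = 0.0125), of the polymerase that starts new strands, *Mcm10* (-0.68, SE 0.14, adjusted p = 0.0152), a replication initiation factor, and *Pole* (-0.67, SE 0.14, adjusted p = 0.0177). The count was 2 without mouse 1 or 3 and 3 without mouse 8 or 9, against 6.07% of all genes tested, and 1 gene was called higher without mouse 1. DESeq2 called 6 of 30 lower and 14 were lower at an unadjusted p under 0.05, against 6.14% and 13.8% of all genes. None was called between the treated groups by edgeR or DESeq2, or at an unadjusted p under 0.05, and 25 of 30 were negative there with a median of -0.09.

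Of 9 other E2F family genes, *E2f8* and *E2f2* were called lower in both treated groups against naive WT, against 6.92% of all genes tested in WT CAC and 6.07% in *Cldn2*TG CAC. *E2f8*, a repressor of the family that E2F itself switches on, was at 23.6, 21.0 and 22.1 CPM in naive WT, at 8.0, 10.3 and 7.88 CPM in WT CAC and at 13.5, 12.9 and 10.5 CPM in *Cldn2*TG CAC mice. The groups did not overlap. *E2f8* was lower in WT CAC (-1.34, SE 0.16, adjusted p = 0.00583) and in *Cldn2*TG CAC (-0.85, SE 0.14, adjusted p = 0.00574) than in naive WT, and both calls held without any 1 mouse. *E2f2*, an activator, was at 31.2, 51.8 and 42.4 CPM in naive WT, at 14.9, 16.9 and 24.5 CPM in WT CAC and at 20.2, 18.2 and 24 CPM in *Cldn2*TG CAC mice. Both treated groups were below all naive mice (-1.15, SE 0.24, adjusted p = 0.0235 and -1.0, SE 0.18, adjusted p = 0.0108). The first call was lost without mouse 2, 3 or 5, and the second held without any 1 mouse. None of the 9 was called between the treated groups in the main edgeR fit or by DESeq2. *E2f3* was called higher there in 1 of the 8 alternatives that kept all mice (0.40 in the main fit). At an unadjusted p under 0.05, 2 of the 9 were higher there, against 8.84% of all genes tested.

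Of 12 cell cycle inhibitors, 11 were tested, and 3 were called lower and 0 higher in WT CAC against naive WT, against 6.92% and 8.04% of all genes tested. The number called lower was 0 without mouse 1, 2, 3 or 5, 1 without mouse 6 and 5 without mouse 4. The 3 were *Cdkn2c* (-0.80, SE 0.16, adjusted p = 0.0206), encoding the Cdk4 and Cdk6 inhibitor p18, and the retinoblastoma relatives *Rbl2* (-0.49, SE 0.13, adjusted p = 0.0435) and *Rbl1* (-0.47, SE 0.12, adjusted p = 0.0331). *Cdkn2c* was at 24.2, 18.3 and 20.7 CPM in naive WT, at 12.0, 10.6 and 13.6 CPM in WT CAC and at 17.7, 19.0 and 13.8 CPM in *Cldn2*TG CAC mice. The inhibitor gene *Cdkn1c*, encoding p57, was called lower in *Cldn2*TG CAC than in WT CAC (-1.07, SE 0.28, adjusted p = 0.0440), and this call was lost without mouse 5, 6, 7, 8 or 9 (adjusted p up to 0.175). It was at 6.44, 7.98 and 11.5 CPM in WT CAC, at 4.0, 3.47 and 4.83 CPM in *Cldn2*TG CAC and at 4.78, 5.06 and 5.37 CPM in naive WT mice, so WT CAC mice were above all others. Which inhibitors were called higher depended on the setting. In WT CAC against naive WT, *Cdkn2a* and *Cdkn1c* were called higher by DESeq2, and both were also called higher by edgeR without mouse 4. Without mouse 4, *Cdkn1b*, encoding p27, was called higher in *Cldn2*TG CAC than in WT CAC (0.51, adjusted p = 0.0261). *Cdkn2a*, which encodes p16 and p19ARF and is described here because these calls turned on it, did not pass the filter on low counts with all mice. It was at 0.26, 11.6 and 21.1 CPM in WT CAC mice 4, 5 and 6, and at or below 0.151 CPM in every naive WT and *Cldn2*TG CAC mouse. WT CAC mice 5 and 6 alone were therefore high, and mouse 4 was near the other groups. Of all 9 mice, WT CAC mice 5 and 6 also had the highest levels of *Ccnd1* and the highest summed levels of crypt stem cell (247 and 421 CPM), macrophage (281 and 292 CPM) and plasma cell markers (757 and 764 CPM). They had the highest level of the neutrophil gene *S100a8* (18.3 and 13.6 CPM) and the lowest sums of differentiated colonocyte markers (3296 and 2515 CPM). The part of these in the *Cdkn2a* levels was not tested.

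**Figure D5:**
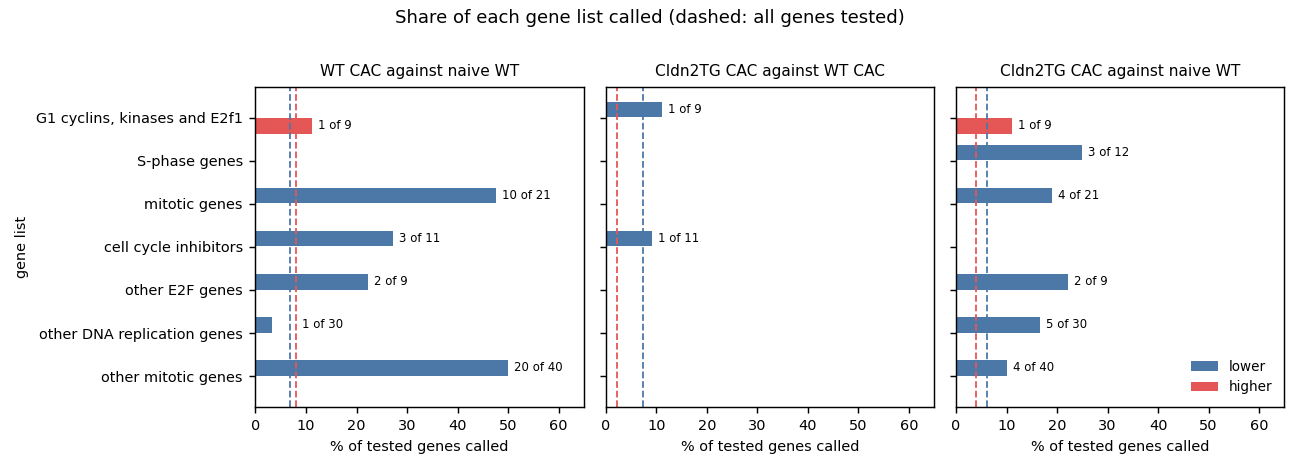
Share of the tested genes of each list called lower (blue) or higher (red) in each comparison (x axis, %), with the share of all genes tested as dashed lines of the same color; labels give the number called of the number tested, and lists without a bar had none called. The 2 mitotic lists have 10 of 21 and 20 of 40 called lower in WT CAC against naive WT, and 0 called in Cldn2TG CAC against WT CAC.

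Markers of the cells in the tissue moved between the same groups, and their part in the results above was not tested. The 10 colon epithelium markers summed to 21967 to 23116 CPM in naive WT, 21838 to 28556 CPM in WT CAC and 23634 to 27935 CPM in *Cldn2*TG CAC mice, and 0 of 10 were called in WT CAC against naive WT and 2 of 10 were called higher in *Cldn2*TG CAC against naive WT. For the marker counts given here, the shares of all genes tested called higher and lower were 8.04% and 6.92% in WT CAC against naive WT, 2.19% and 7.35% between the treated groups, and 3.92% and 6.07% in *Cldn2*TG CAC against naive WT. Of the crypt stem cell markers, 1 of 6 tested was called higher in each treated group against naive WT, and their sum was 163 to 187 CPM in naive WT, 158, 247 and 421 CPM in WT CAC mice 4, 5 and 6, and 181 to 192 CPM in *Cldn2*TG CAC mice. *Lgr5*, the stem cell receptor of that list, was at 8.46 to 13.2 CPM in naive WT and 5.56 to 24.7 CPM in WT CAC mice. In *Cldn2*TG CAC mice it was at 6.22 to 8.0 CPM, below all naive mice. *Ascl2* of the same list was at 7.35 to 10.3 CPM in naive WT, 15.1 to 32.8 CPM in WT CAC and 12.3 to 19.7 CPM in *Cldn2*TG CAC mice. Differentiated colonocyte markers were called lower in 2 of 7 cases in WT CAC, with a sum of 5743, 3296 and 2515 CPM there, 5246 to 7489 CPM in naive WT and 6245 to 9065 CPM in *Cldn2*TG CAC mice. Between the treated groups, 7 of 7 were positive in *Cldn2*TG CAC with a median of 1.06, and the same pair of genes was called higher, *Car4* (1.90, adjusted p = 0.0131) and *Aqp8* (1.84, adjusted p = 0.0190). Goblet cell markers had 1 of 7 called lower in WT CAC against naive WT and 1 of 7 called higher in *Cldn2*TG CAC against WT CAC, which was *Clca1* in both. Single mice carried these counts too. For colon epithelium in *Cldn2*TG CAC against naive WT, the count called higher was 0 without mouse 1, 2, 3, 8 or 9. It stayed at 2 without mouse 7. In WT CAC against naive WT, without mouse 4 the calls were 4 of 6 crypt stem cell markers higher and 4 of 7 colonocyte and 3 of 7 goblet cell markers lower, and without mouse 2 there were none in these lists. Between the treated groups, 0 of 7 colonocyte markers were called without mouse 5, 8 or 9 and 5 without mouse 4, and 3 of 6 crypt stem cell markers were called lower without mouse 4.

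In WT CAC against naive WT, 6 of 7 T cell, 5 of 7 macrophage, 2 of 4 plasma cell and 4 of 4 neutrophil markers tested were called higher. These counts rested on single mice, and without mouse 2 they were 0, 0, 1 and 0. Without mouse 1, which differs in sex, they were 1, 0, 1 and 1. Without mouse 4 they were 6 of 7, 7 of 7, 4 of 5 and 5 of 5. In *Cldn2*TG CAC against WT CAC, 6 of 7, 5 of 7, 3 of 4 and 2 of 3 of these lists were called lower, and none in any of the 4 lists without mouse 8 or without mouse 9.

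T cell markers summed to 6.06 to 11.3 CPM in naive WT, 20.7 to 33.6 CPM in WT CAC and 7.09 to 10.9 CPM in *Cldn2*TG CAC mice. In the macrophage, plasma cell and neutrophil lists 1 gene carried much of the sum, so single genes are given. The macrophage list was led by *Cd14*, at 69.4 to 144 CPM over all mice and not called in WT CAC, whereas the complement gene *C1qa* was at 11.1, 6.71 and 10.3 CPM in naive WT, at 18.3, 43.9 and 52.8 CPM in WT CAC and at 11.4, 5.18 and 8.20 CPM in *Cldn2*TG CAC mice. The plasma cell list was led outside WT CAC by *Sdc1*, whereas *Jchain*, encoding the joining chain of secreted antibodies, was at 41.8, 36.7 and 87.8 CPM in naive WT, at 191, 426 and 393 CPM in WT CAC and at 96.5, 22.0 and 35.9 CPM in *Cldn2*TG CAC mice. For both genes all WT CAC mice were above all others. The neutrophil list was led by *Ly6g*, at 135 to 207 CPM in naive WT, 305 to 324 CPM in WT CAC and 303 to 348 CPM in *Cldn2*TG CAC mice. *S100a8* did not follow it, at 0 to 0.258 CPM in naive WT, 0.571, 18.3 and 13.6 CPM in WT CAC and 0 to 0.201 CPM in *Cldn2*TG CAC mice. *Ly6g* was the 1 neutrophil marker tested in *Cldn2*TG CAC against naive WT, where it was called higher, while *S100a8*, *S100a9*, *Csf3r* and *Cxcr2* were too low there to be tested. *Cd14* was the 1 of 7 macrophage markers called lower in that comparison, and no T cell or plasma cell marker was called.

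B cell and germinal center markers, from a compartment with dividing cells, varied within groups, at 35.9, 4.31 and 6.41 CPM in naive WT, 58.1, 28.3 and 49.2 CPM in WT CAC and 10.4, 21.9 and 3.73 CPM in *Cldn2*TG CAC mice, and the germinal center gene *Mef2b* was at or below 0.0501 CPM in every mouse. None of 8 was called in WT CAC against naive WT, but without naive WT mouse 1, 6 of 8 were called higher. In *Cldn2*TG CAC against WT CAC, 1 of 7 was called lower, which was 1 without mouse 4 and 0 without mouse 5, 6, 7, 8 or 9. Smooth muscle markers were called lower in 3 of 7 cases in *Cldn2*TG CAC against naive WT (1 without mouse 3, 6 without mouse 2) and in none in WT CAC (5 without mouse 4), and summed to 2128 to 4249 CPM in naive WT, 1113 to 3140 CPM in WT CAC and 998 to 1549 CPM in *Cldn2*TG CAC mice. Fibroblast and endothelium markers were not called in WT CAC against naive WT (0 of 7 and 0 of 6, with 4 fibroblast markers called higher without mouse 4), and in *Cldn2*TG CAC against WT CAC 2 of 7 and 3 of 6 were called lower, and 0 of either without mouse 8 or 9. Against naive WT, 2 of 7 and 4 of 6 of them were called lower in *Cldn2*TG CAC. The fibroblast count there was 0 without mouse 3 and 1 without mouse 1 or 8. The endothelium count was 2 without mouse 2 or 8 and 3 without mouse 1, 3, 7 or 9.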

How the data were processed

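RNA-seq libraries of 9 mouse colons, 3 a group, were each sequenced on 2 lanes, and all 18 deposited columns were used. The authors deposited counts per gene from featureCounts (Subread) on GRCm38, with exonic length. The submitters' processing notes name HISAT2 and the study's methods TopHat2 as the aligner. Versions and strand settings are not given in the sources used here. Lanes of a library were summed, and no total or unassigned read was in the table. Ensembl identifiers were paired with symbols from GENCODE M21, which held 47224 of 47729 identifiers and all 42 members.

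Each comparison was fitted on its 6 mice with edgeR 4.0.16 (R 4.3.3, limma 3.58.1), using TMM factors, filterByExpr (minimum count 10, minimum total 15), a robust quasi-likelihood test, two-sided, with p-values adjusted by Benjamini-Hochberg across every gene tested. A gene was called at an adjusted p under 0.05. The SE is the fold change divided by the square root of F. CPM and RPKM, the level of 3 counts included, are TMM-scaled, and fold changes are log2. The study used DESeq2, which is an alternative here (1.42.0). Alternatives were library-size and upper-quartile scaling, no filter, a floor of 10 counts per mouse, a joint fit of the 9 mice, each lane alone, a threshold that adds a log2 fold change of at least 1, and leaving out each mouse. The members, lists and tests were chosen with earlier results of these data known. Genes given with all mice were members called in any comparison, the G1 cyclins except *Ccne2* (by range), *Mki67*, *Pcna*, *Top2a*, *Cdk1*, *Mcm2* and *Rrm2*. Of each pathway list, up to 3 called genes with the largest change were named. Of these, *Hmmr*, *E2f8*, *E2f2*, *Cdkn2c* and *Cdkn1c* were given with all mice and the others by their fold change. *Cdk4*, *Ccnb2*, *Cdc25c*, *Cdkn2a*, *Cdkn1b*, *E2f3*, *Ascl2*, *Car4*, *Aqp8*, *Clca1* and the single immune markers were added after their values were seen. How reads shared by near-identical copies were counted is not given in the sources used here. The level of 3 counts covers counting error only.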

Additional observations from a re-analysis of the deposited data

How the results depend on the processing

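No paired analysis was possible because the groups share no replicate number. Of the fold changes of called members under the alternatives, 185 stayed past the threshold, 95 did not and 0 changed sign. The cause of the changes below was not tested. In WT CAC against naive WT, 3 members, all mitotic, were called lower when a log2 fold change of at least 1 was also asked for, and 0 were called higher with lane 1 alone or scaling by library size. When 1 mouse was left out, 0 to 15 members were called lower (all mitotic) and 0 to 2 higher, with a median of -0.58 to -0.30 over the members and 0.08 to 0.32 over the G1 genes. In *Cldn2*TG CAC against WT CAC, DESeq2 called 4 members higher and the fit without a filter 3. Members called lower were 0 in the fit of all 9 mice, with lane 2 alone and with the added fold change, and 0 to 2 when a mouse was left out. In *Cldn2*TG CAC against naive WT, members called lower were 11 with DESeq2, 11 with scaling by library size, 17 with no filter, and 0 with the fit of all 9 mice or the added fold change, and members called higher were 0 with these last settings and with library size. The S-phase genes called lower were 5 with library size and 5 with no filter, and the mitotic genes 7 with DESeq2 and 12 with no filter, and both were 0 in the fit of all 9 mice and with the added fold change. When a mouse was left out, 0 to 1 members were called higher and 0 to 6 lower (0 to 3 of S phase, 0 to 6 mitotic), and the mitotic median was -0.65 to -0.24. Scaling by library size moved the G1 median to -0.07 and the summed G1 level of *Cldn2*TG CAC mice to 103 RPKM. It also changed the split of the calls in this comparison, from 589 higher and 912 lower genes to 276 and 1310, and from 1 higher and 7 lower members to 0 and 11. Each member had at least 57 counts in every mouse, and each group had 3 mice.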
